A study of Mus musculus with 4 samples.

Results

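The genes described here are 35 genes of the skeletal muscle contractile apparatus, read in mouse fat. They were chosen by name, as the genes of a list that have a probe of that gene name on all 4 arrays of the study. They are 35 of the 22066 genes and are read by 50 of the 55681 probes. The study asked how loss of ASK1, a stress-activated kinase of the MAP3K family encoded by Map3k5, alters gene expression in interscapular brown adipose tissue (iBAT) and epididymal white adipose tissue (eWAT). There were 4 groups with 1 array each: WT iBAT, ASK1-deficient iBAT, WT eWAT and ASK1-deficient eWAT. The RNA on an array, labelled with Cy3, was a pool of 3 males, 10 weeks old and kept under normal conditions, and no group had a replicate. The ASK1-deficient mice lack the kinase in the whole body, so their muscle lacks it as well as their fat, and no group of these arrays had a deletion limited to adipocytes. Both genotypes were on the C57BL/6 J background and were bred separately.

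Striated muscle shortens when myosin heads of the thick filament pull on actin of the thin filament. Calcium released from the sarcoplasmic reticulum binds troponin and exposes the actin sites. Fast and slow fibres build this machine from different members of the same gene families, and both need creatine kinase, glycogen breakdown and myoglobin for fuel and oxygen. Brown adipocytes come from a Myf5-positive lineage that they share with skeletal muscle, and the interscapular depot lies on the muscles of the back, while the epididymal depot lies in the abdomen beside the testis. Whole-depot RNA is a mixture, so a lower signal from fewer muscle cells cannot be told apart from one due to less RNA per cell.

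The share of probes with a signal well above background, as marked by the scanner software, ran from 52.1% in WT iBAT and 54.8% in iBAT of ASK1-deficient mice to higher values in eWAT, with 58.4% in its ASK1-deficient array, and no spot was saturated. Signals are given on the scanner's linear scale, without scaling between arrays, in the order WT iBAT, ASK1-deficient iBAT, WT eWAT and ASK1-deficient eWAT. Log2 ratios were taken after the 75th percentile of each array, between 356 and 673, had been set equal. One probe of Map3k5 was lower in both ASK1-deficient tissues, with signals of 448, 117, 701 and 194. The other Map3k5 probe gave 1081, 1082, 1264 and 836, so in iBAT it did not separate the genotypes. Ucp1 and Cidea, which mark brown adipocytes, had log2 ratios of WT iBAT to WT eWAT of 6.62 and 6.40, and Lep, which encodes the hormone leptin, had -4.56, as the tissue labels would have it. Adipoq, which adipocytes of both kinds make, was bright on all 4 arrays. Between spots of the same probe, the SD of the log2 ratio had a median of 0.09 for the genotype comparison in iBAT and 0.06 for that in eWAT. This is technical spread only, and mice can differ by more.

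The probes are 60 bases long, and 9 of the 50 have genome positions on mm9 that span more than 60 bases, so that they read parts of a spliced transcript lying apart in the genome. A few are printed here because the results turn on the genes they read. Myl1 had the lowest ratio of iBAT to eWAT of the members measured, and its second probe lies at chr1:66976853-66981100 on the minus strand. The Ckm probe, at chr7:20002222-20004829 on the plus strand, was lost in ASK1-deficient eWAT. Actn3 at chr19:4861727-4862212 on the minus strand and Tnni1 at chr1:137705328-137706203 on the plus strand stand for the fast and the slow fibre. The exons were not assigned, since no annotation of mm9 was used.
Myl1: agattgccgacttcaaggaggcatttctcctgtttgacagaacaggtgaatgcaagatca
Ckm: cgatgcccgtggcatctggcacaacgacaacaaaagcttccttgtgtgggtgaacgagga
Actn3: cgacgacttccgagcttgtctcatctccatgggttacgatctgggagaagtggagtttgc
Tnni1: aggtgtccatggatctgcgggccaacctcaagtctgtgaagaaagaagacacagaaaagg

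Tnnt3, the fast troponin T, is read by a pair of probes that share sequence, at chr7:149698467-149698526 and chr7:149698500-149700262 on the plus strand. The capitals mark the 27 bases that they have in common, so their values are not independent.
Tnnt3, upstream probe: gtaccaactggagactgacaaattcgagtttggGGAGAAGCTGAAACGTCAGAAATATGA
Tnnt3, downstream probe: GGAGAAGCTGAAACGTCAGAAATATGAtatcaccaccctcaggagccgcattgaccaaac

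Promoter sequence from RefSeq, on GRCm38.p6, was found for 28 of the 35 members. There was no entry for Tnni2, Tnnt3, Actn3, Neb, Sln, Tcap and Myoz1. The 250 bases before the start of Acta1 (chr8:123894776-123895025, minus strand), Ckm (chr7:19410844-19411093, plus strand) and Myh4 (chr11:67237562-67237811, plus strand) are printed because they stand for the thin filament, the fuel supply and the myosin with the largest difference between the depots. Capitals mark matches on either strand to the E-box CAGCTG bound by myogenic factors, to the MCAT element CATTCC, to the TATA box in the form TATAAA, to the MEF2 site and to the CArG box bound by serum response factor.
Acta1 promoter: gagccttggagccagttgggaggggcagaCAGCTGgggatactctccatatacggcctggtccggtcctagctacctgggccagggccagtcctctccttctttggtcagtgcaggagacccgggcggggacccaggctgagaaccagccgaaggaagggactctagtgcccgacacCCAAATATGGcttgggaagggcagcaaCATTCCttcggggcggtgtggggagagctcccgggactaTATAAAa
Ckm promoter: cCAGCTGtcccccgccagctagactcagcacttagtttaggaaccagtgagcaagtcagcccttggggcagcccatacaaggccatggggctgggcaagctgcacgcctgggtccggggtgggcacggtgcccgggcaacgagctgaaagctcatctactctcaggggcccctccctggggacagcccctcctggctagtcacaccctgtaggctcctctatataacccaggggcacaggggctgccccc
Myh4 promoter: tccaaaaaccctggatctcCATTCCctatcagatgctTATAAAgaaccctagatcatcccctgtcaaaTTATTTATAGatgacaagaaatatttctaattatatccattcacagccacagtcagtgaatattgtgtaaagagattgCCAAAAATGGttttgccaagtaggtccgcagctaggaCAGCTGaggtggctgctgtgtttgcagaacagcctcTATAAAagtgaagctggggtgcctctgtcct

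Among the 28 members, 14 held the CAGCTG form of the E-box, against 14.7% of the 250-base promoters of all 27025 genes of the table. The looser form CANNTG, which includes CAGCTG, was in 24 of the 28 and in 69.3% of all promoters. CATTCC was in 11 of the 28 and in 14.4% of all, TATAAA in 7 and in 14.3%, the MEF2 site in 4 and in 3.42%, and the CArG box in 3 and in 1.62%. The 4 with a MEF2 match were Myh1, Myh4, Pvalb and Ttn, and the 3 with a CArG match were Acta1, Myh4 and Myl3. TATAAA can share letters with a MEF2 match, and these are letter matches, not sites shown to be bound.

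Muscle transcripts were bright in iBAT of both genotypes and dim in eWAT. All 35 members had a probe well above background in both iBAT arrays, while 28 had one in WT eWAT and 25 in eWAT of ASK1-deficient mice. In WT, 28 members could be measured in both depots, and 28 of the 28 were at least 2-fold higher in iBAT, where 16.4% of all genes measured were. Their median log2 ratio, iBAT minus eWAT, was 6.84, against 0.12 for all 14235 genes. In ASK1-deficient mice it was 25 of 25, where 12.3% of all genes were at least 2-fold higher, with a median of 7.24 against 0.03. The members dim in eWAT were at least 17.0-fold higher in WT iBAT (7 members) and at least 17.8-fold higher in ASK1-deficient iBAT (10 members). For such a bound, the eWAT level was put at the faintest signal that still counted as well above background on that array, or at the probe's own signal where this was higher.

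**Figure D1:**
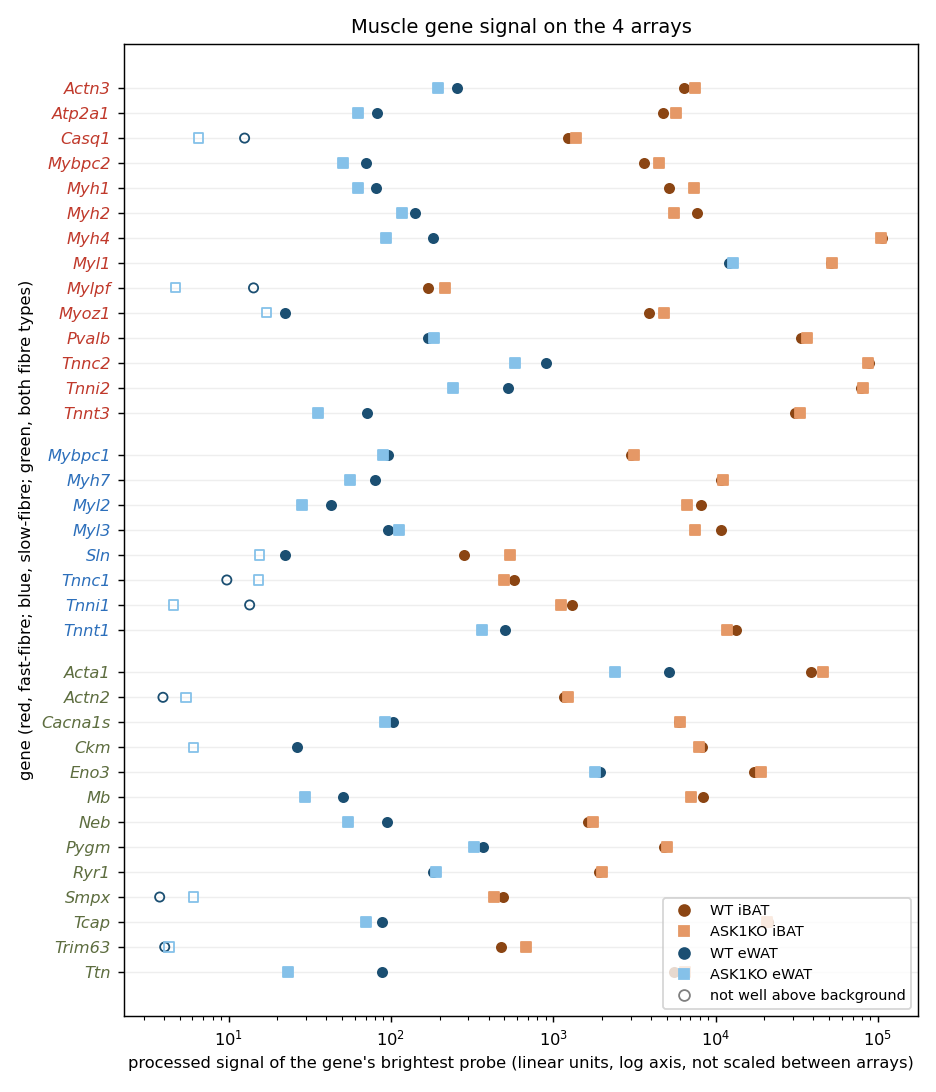
Processed signal of the brightest probe of each of the 35 genes on the 4 arrays, on a log axis and not scaled between arrays, with 1 array per group and no error bars. Open symbols are not well above background, and points are to be compared within a gene, not between genes. In every gene the iBAT points lie to the right of the eWAT points.

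The muscle genes took many of the top places in the comparison of the depots. Of the 50 genes with the highest ratio of iBAT to eWAT, 21 were members in WT and 20 in ASK1-deficient mice. Among the top 200, the members numbered 28 in WT and 25 in ASK1-deficient mice, which is every member measured in that genotype. Myh4, the myosin heavy chain of the fastest fibres (type IIb), had the highest ratio of all genes in both genotypes. Its signals were 106463, 104259, 182 and 93.8, and its log2 ratios between the depots were 10.12 in WT and 10.89 in ASK1-deficient mice. Tnnt3 followed among the members, with 9.72 in WT and 10.63 in ASK1-deficient mice. The lowest member was Myl1, the fast essential light chain, with 3.44 and 3.24.

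A limma fit of tissue and genotype then used all 4 arrays at once. All 25 members that were well above background on each of the 4 arrays had an adjusted p under 0.05 for tissue, between 3.45e-06 and 7.39e-05, where 55.4% of the 14057 genes tested did and 30.8% were higher in iBAT. The fitted log2 difference, iBAT minus eWAT, had a median of 7.02 over the 25, from 3.34 (SE 0.15) for Myl1 to 10.50 (SE 0.21) for Myh4, each with 2 arrays per tissue. The SE rests on 1 residual degree of freedom, moderated over all genes, which is how far the genotype ratios of iBAT and eWAT disagree. Differences from mouse to mouse do not enter it.

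**Figure D2:**
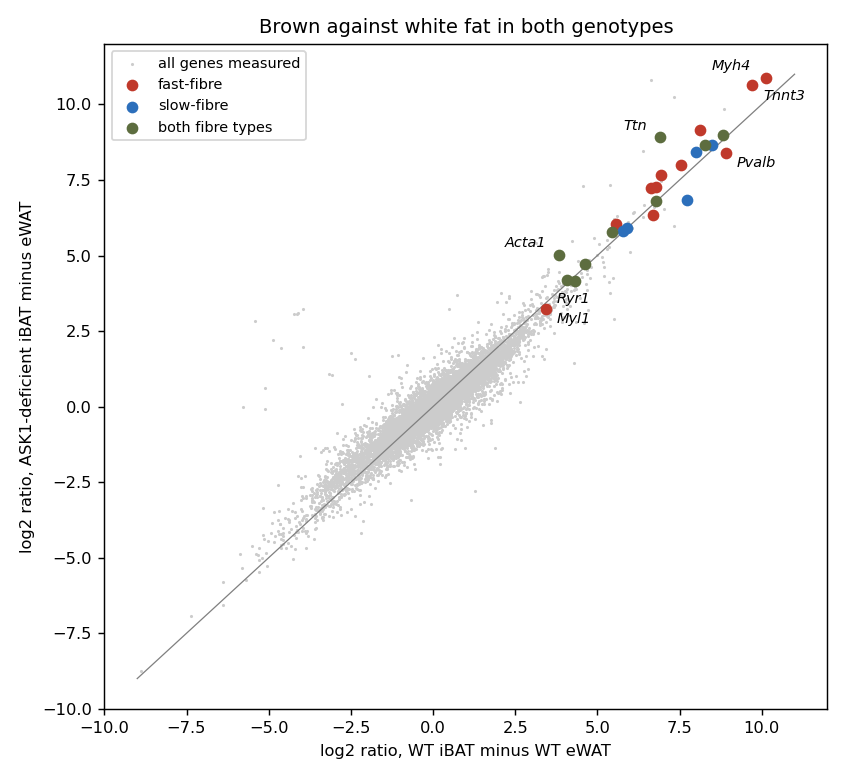
Log2 ratio of iBAT to eWAT in WT (horizontal axis) and in ASK1-deficient mice (vertical axis) for all genes measured in both genotypes (grey) and for 25 muscle members (colours), with the line of equal ratios. The 2 axes share no array, and the members lie between 3.24 and 10.89, with Myl1 the lowest and Myh4 the highest.

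In iBAT, the muscle genes of ASK1-deficient mice lay within 2-fold of WT. All 35 were measured, and 0 were at least 2-fold apart, where 1.85% of the 14376 genes measured were. Their median log2 ratio, ASK1-deficient minus WT, was 0.0057, with 18 above 0 and 17 below 0, while the median of all genes was -0.07. The median of the members was 0.07 above that of all genes under every scaling by 1 constant per array, though its own sign turned negative, to -0.07, when each array was centred on its median, and to -0.08 with the deposited series table. The summed signal of the 50 probes, scaled to each array's 75th percentile, was 1764 for WT iBAT against 1729 for ASK1-deficient iBAT. A genotype difference in 1 pair of pooled arrays has no replicate check, so values are given with no test.

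Motor and thick filament genes went both ways in iBAT. Myh1, the heavy chain of fast type IIx fibres, gave signals of 5199, 7413, 81.1 and 62.6, so its ASK1-deficient iBAT level was 1.37 times that of WT (log2 ratio 0.45). Myh2, the heavy chain of the oxidative fast type IIa fibres, gave 7639, 5544, 141 and 118, with a log2 ratio of -0.52 in iBAT. The myosins of the fastest and of the slow fibre stood between them, with -0.09 for Myh4 and -0.01 for Myh7. Myh7, the slow and cardiac heavy chain, gave 10767, 11159, 79.8 and 55.7.

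Light chains of the slow fibre were lower in ASK1-deficient iBAT than in WT. Myl3, the slow essential light chain, had signals of 10777, 7501, 96.3 and 113, the lowest log2 ratio of all members in iBAT at -0.58. For Myl2, the slow regulatory light chain, the bright probe gave 8091, 6648, 42.8 and 28.2, or -0.34, while its second probe was not well above background on any array. The fast regulatory light chain Mylpf gave 169, 216, 14.3 and 4.71, a log2 ratio of 0.29 in iBAT, and was not well above background in eWAT. Myl1 was at 0.02 over its pair of probes, which gave 51694, 51804, 12034 and 12785, and 2187, 2434, 287 and 324. Of the myosin-binding proteins, fast Mybpc2 was at 0.26 and slow Mybpc1 at 0.03. Ttn, the giant spring of the sarcomere, was at 0.15 in iBAT over 4 probes that ran from 0.01 to 0.36.

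Thin filament genes were close to WT in iBAT, with a median of -0.05 over 8 genes. Acta1, skeletal actin, gave 38944, 45920, 5168 and 2399, a log2 ratio of 0.18. The fast troponin subunits lay near 0, with -0.01 for the inhibitory subunit Tnni2, -0.10 for the calcium-binding subunit Tnnc2 and 0.07 for Tnnt3. Their slow counterparts were all lower, with -0.30 for Tnni1, -0.27 for Tnnc1 and -0.23 for Tnnt1. Neb, the ruler of the thin filament, was at 0.12, with a spread over its 3 probes from -0.11 to 0.45 that is wider than the value itself.

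Z-disc and turnover genes had a median of 0.09 in iBAT. Actn3, the fast-fibre alpha-actinin, gave 6352, 7474, 254 and 195, or 0.17. Actn2, which all fibres use, gave 1169, 1231, 3.95 and 5.48, or 0.01. The other 4 were the ubiquitin ligase Trim63 (MuRF1) at 0.30, the calcineurin-binding Myoz1 at 0.24, the titin cap Tcap at -0.08 and the small muscle protein Smpx at -0.23. A second Smpx probe was well above background only in ASK1-deficient iBAT, at least 1.64-fold higher there, so the pair of Smpx probes differed in direction.

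Sln was the member that differed most in iBAT, except with no filter on dim probes, where Smpx did, at 1.29. It encodes sarcolipin, a small peptide that uncouples the sarcoplasmic reticulum calcium pump and makes it release heat. The signals were 284, 545, 22.4 and 15.5, so the ASK1-deficient iBAT level was 1.84 times that of WT, a log2 ratio of 0.88. This placed Sln at rank 186 of 14376 genes, the 1 member among the 200 highest. The signal is that of 1 probe, and across the alternative settings its ratio ran from 0.79 to 0.98.

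The remaining calcium genes were nearer to 0. Atp2a1, the fast-fibre calcium pump SERCA1 that sarcolipin binds, gave 4719, 5686, 81.9 and 62.6, or 0.21 in iBAT. The release channel Ryr1 gave 1914, 1988, 182 and 191, with a log2 ratio of -0.01 in iBAT. Its voltage sensor Cacna1s gave 5956, 6028, 103 and 91.7 at the brighter probe, or -0.04 in iBAT, and its second probe was at 0.06 there. Casq1, the fast calcium store protein, was at 0.09 and the calcium buffer Pvalb (parvalbumin) at -0.01. Of the genes of fuel and oxygen supply, Mb (myoglobin) was at -0.30, the muscle creatine kinase Ckm at -0.12, glycogen phosphorylase Pygm at -0.01 and the muscle enolase Eno3 at 0.08.

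Sorted by fibre type, the median of the slow-fibre genes was below that of the fast-fibre genes in ASK1-deficient iBAT. Of 8 slow-fibre members, 6 were below 0, with a median log2 ratio of -0.25, where 59.5% of all genes were below 0. With so few genes, that count is near the share of all genes. The exceptions were Mybpc1 and Sln, the latter at 0.88 the highest of all members. Myh7, counted as below 0, was at -0.01, and its sign turned across settings (-0.09 to 0.14). Of 14 fast-fibre members, 5 were below 0, with a median of 0.08, and of the 13 used by both fibre types 6 were below 0, with a median of 0.01. The summed scaled signal of the slow-fibre genes was 141 for WT iBAT against 120 for ASK1-deficient iBAT, and that of the fast-fibre genes was 1285 against 1261. The difference between the fibre types was not tested, as 1 pair of arrays gives no spread to test it with. In the same pair of arrays the smooth muscle list was above 0 in 8 of 8 genes measured (median 0.45, summed scaled signal 37.3 for WT against 53.1), the macrophage list in 7 of 8 (median 0.46, 41.7 against 51.2), and the brown adipocyte list below 0 in 9 of 10 (median -0.37, 4071 against 3422). The part of these cell types in the muscle values was not tested.

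**Figure D3:**
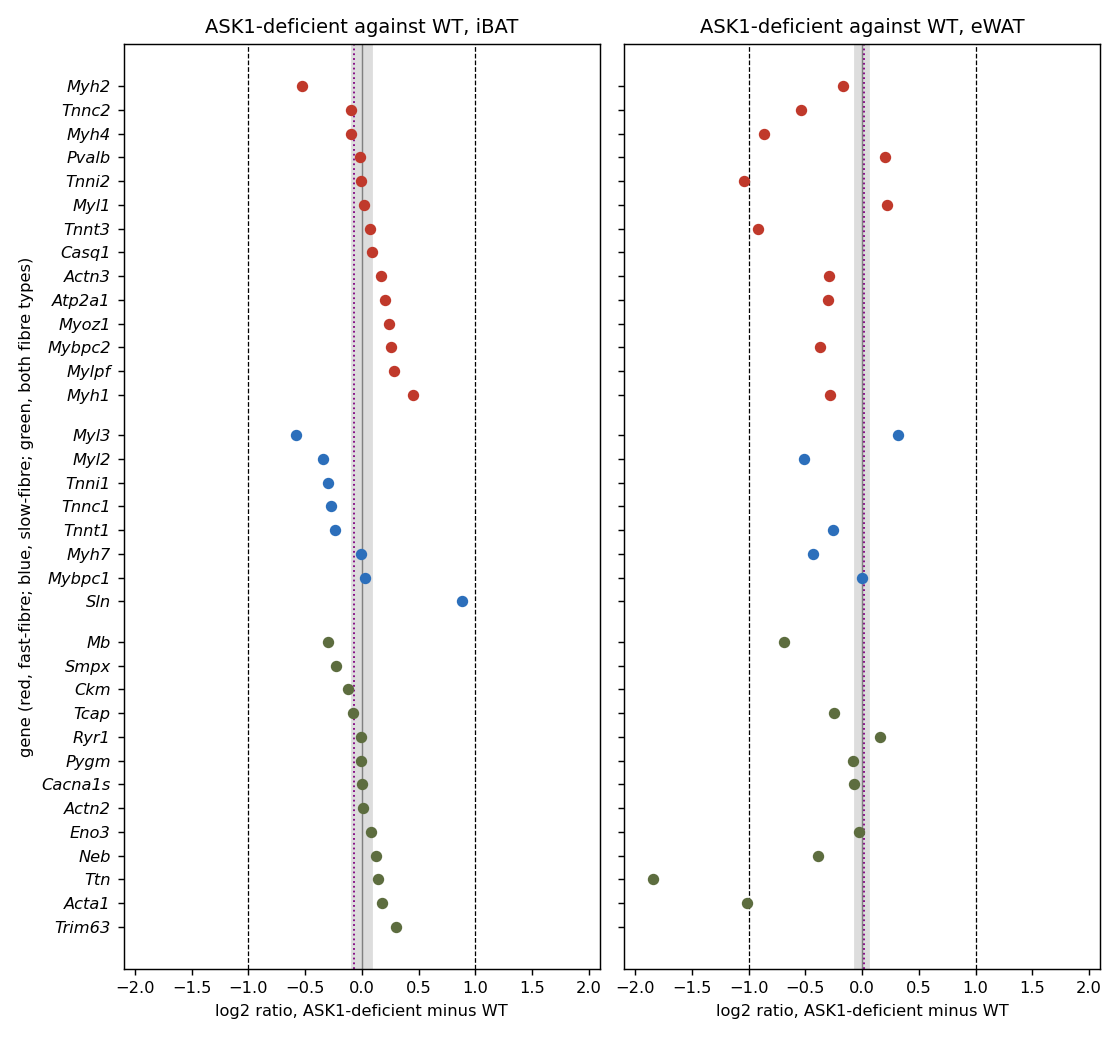
Log2 ratio, ASK1-deficient minus WT, of each muscle gene in iBAT (left) and eWAT (right), 1 pair of arrays each, in the same row order and sorted by the iBAT value within a fibre type. The grey band is 1 median SD between spots of a probe, dashed lines mark 2-fold, the dotted line is the median of all genes, and a gene with no point was not well above background on both arrays. In iBAT all 35 points lie inside the dashed lines, and in eWAT 21 of 25 lie below 0.

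In eWAT the muscle signal was far dimmer, and most of what could be measured was lower in ASK1-deficient mice. Of the 25 members measured on both eWAT arrays, 21 were below 0, where 45.8% of the 15376 genes measured were, and the median log2 ratio was -0.29, against 0.02 for all genes. At least 2-fold lower were 3 members, Ttn, Tnni2 and Acta1, where 0.865% of all genes were, and 0 were at least 2-fold higher, where 0.286% of all genes were. At 1.5-fold it was 6, with Tnnt3, Myh4 and Mb added, where 2.66% of all genes were. With normexp background correction, which adds a constant offset to all signals, the median was -0.17 and 0 members were 2-fold lower, though 21 of 25 stayed below 0. With only probes of a mean eWAT signal of at least 100, chosen after seeing the data, 13 members were left, of which 9 were below 0, with a median of -0.17.

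Of the 8 thin filament genes, 6 were measured in eWAT. All 6 were below 0, where 45.8% of all genes were, with a median log2 ratio of -0.73. Acta1 went from 5168 to 2399, so ASK1-deficient eWAT had 0.493 times the WT level. Tnni2 gave 78137, 81200, 530 and 242, or 0.486 times the WT level in eWAT. Fast troponin was thus lower in its inhibitory subunit, and its calcium-binding subunit Tnnc2, with 88729, 86682, 902 and 586, had a log2 ratio of -0.54. Both Tnnt3 probes were lower, one from 71.5 to 35.7 (-0.92) and the overlapping one by at least 2.05-fold, from 45.2 to a signal not well above background. Slow Tnnt1 was at -0.26 and Neb at -0.39, and the slow subunits Tnni1 and Tnnc1 were not well above background on either eWAT array.

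Thick filament genes were below 0 in 8 of 10, where 45.8% of all genes were, with Mybpc1 at -0.00 among the 8. The summed scaled signal of the thick filament genes was 19.7 for WT eWAT against 21.8 for ASK1-deficient eWAT, and that of the fast-fibre members 22.2 against 23.4. Most of each sum came from Myl1, whose bright probe read 12034 in WT and 12785 in ASK1-deficient eWAT. Ttn had the lowest log2 ratio of all members in eWAT, -1.84, but 1 of its 4 probes was measurable there, with a signal of 87.9 in WT that went down to 23.1, where the faintest signal counted as well above background on that array was 20.7. The other 3 were not well above background in eWAT. The myosin heavy chains were at -0.87 for Myh4, -0.43 for Myh7, -0.28 for Myh1 and -0.17 for Myh2. Mybpc2 was at -0.37 and Myl2 at -0.51. The 2 that were higher were light chains, Myl3 at 0.31 and Myl1 at 0.22, and Myl3 was thus the lowest member in iBAT and the highest in eWAT. Whether its ratio differs between the depots was not tested.

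Myl1 had the smallest difference between the depots of all members measured in both. Its bright probe read 12034 on the WT and 12785 on the ASK1-deficient eWAT array, and both of its probes were higher in ASK1-deficient eWAT, by 0.18 and 0.26 on the log2 scale. Its log2 ratios of iBAT to eWAT were 3.02 and 3.85 at these probes in WT. Acta1 and Eno3 were the next lowest in WT, at 3.83 and 4.07, and Eno3 gave 17290, 19103, 1955 and 1804. The scaled sum over all 50 probes was 35.7 for WT eWAT against 32.5 for ASK1-deficient eWAT.

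Calcium handling genes showed no common direction in eWAT, with a median of 0.04 over 4 genes. Pvalb and Ryr1 were at 0.20 and 0.16, and Atp2a1 and Cacna1s at -0.30 and -0.08. The pair of Pvalb probes disagreed, since the one that gave the value read 170 for WT and 184 for ASK1-deficient eWAT, while the other read 36.3 and then 15.3, which is not well above background, lower by at least 1.65-fold. Sln, with 22.4 in WT eWAT, was not well above background in the ASK1-deficient array, which bounds it as at least 1.02-fold lower there. Ckm gave 8242, 7909, 26.3 and 6.07, and the last of these was not well above background, so it was lower by at least 1.19-fold. Mb was at -0.69, Pygm at -0.08 and Eno3 at -0.03, and of the Z-disc genes Actn3 was at -0.29 and Tcap at -0.25. For Myoz1 the bound was 1.01-fold lower. Actn2, Casq1, Mylpf, Smpx and Trim63 were dim on both eWAT arrays.

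Transcripts of other cell types also differed between the eWAT arrays. The brown adipocyte list was below 0 in 8 of 9 genes measured, with a median log2 ratio of -0.84 and a summed scaled signal of 54.9 for WT against 22.2. From WT to ASK1-deficient eWAT, Cidea went from 11532 to 2316, Cox8b, a subunit of cytochrome oxidase, from 11019 to 5792 and Ucp1 from 6603 to 252. The hepatocyte list was at least 2-fold lower in 4 of 4 genes measured, with a median of -4.15 and a summed scaled signal of 26.3 against 6.59. Alb, serum albumin, went from 3234 to 158. The pair of probes for Apoa2, which encodes apolipoprotein A-II, differed in size, with 6820 going to 3835 at one (log2 ratio -0.74) and 2040 to 56.8 at the other (-5.08). The adipocyte list was at 0.06 over 8 genes. The part of these differences between the RNA pools in the muscle values was not tested.

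**Figure D4:**
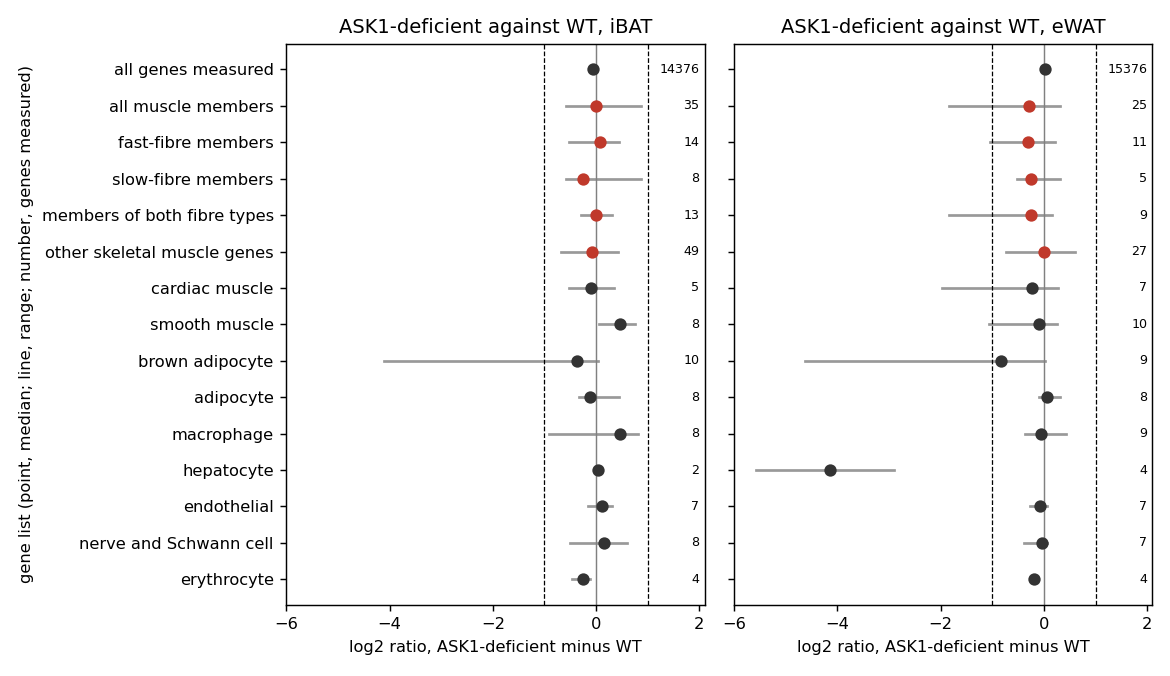
Median log2 ratio (point) and range (line), ASK1-deficient minus WT, of the muscle members and of lists for other cell types in iBAT (left) and eWAT (right), 1 pair of arrays each, with the number of genes measured at the right and dashed lines at 2-fold. In eWAT the members lie at -0.29, between the other skeletal muscle genes at -0.01 and the brown adipocyte list at -0.84, and the hepatocyte list lies far to the left at -4.15.

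The genotype effect over both tissues was fitted with limma in the same 14057 genes. Of the 25 members tested, 0 had an adjusted p under 0.05, and the lowest adjusted p was 0.8395. Over all genes 0.0% passed. At an unadjusted p under 0.05 there were 2 members, Mb and Myl2, where 5.48% of all genes were. For 25 members, that count is near the share of all genes. Both genes were lower in ASK1-deficient mice in both tissues, by log2 ratios of -0.30 and -0.69 for Mb and of -0.34 and -0.51 for Myl2. A low p in a fit of 1 effect over both tissues favours genes that share a direction, so this adds no support. Of the 25 members, Ttn alone passed limma's fit when each array was centred on its median (adjusted p 0.0284), where 0.982% of all genes passed, and when the deposited table of the series was used (adjusted p 0.0375), where 0.911% of all genes did. Its ratio was 0.15 in iBAT and -1.84 in eWAT, the latter from 1 dim probe, so the tissues did not share a direction. At these settings limma pooled the variance fully over genes, so that this disagreement did not enter the SE of Ttn, 0.24 at both against 0.43 with the 75th percentile.

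A list of 51 other skeletal muscle genes had medians near 0 in both tissues. It holds further parts of the sarcomere, the triad and muscle metabolism. In iBAT 49 were measured, with a median log2 ratio of -0.08. Below 0 were 32, where 59.5% of all genes were, and 0 were at least 2-fold apart, where 1.85% of all genes were. The lowest there were the triad protein Jph2 (-0.67), Synpo2l, Lmod3, Myom3 and Lmod2, and the highest the giant muscle protein Cmya5 (0.42), Trdn, Xirp2, Klhl40 and Scn4a. In eWAT 27 were measured, with a median of -0.01. Below 0 were 14, where 45.8% of all genes were. At least 2-fold apart were 0, where 0.865% of all genes were lower and 0.286% higher by that much. The lowest there were Cox6a2, a muscle and brown fat subunit of cytochrome oxidase (-0.73), Cacng1, Jph2, Stac3 and Myom1, and the highest the slow calcium store protein Casq2 (0.60), Cmya5, Ankrd2, Smyd1 and Fbxo32.

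Between the depots most of this list was higher in iBAT, and its median over genes measured in both depots was below that of the members. That difference was not tested. In WT 26 of 31 measured were at least 2-fold higher in iBAT, where 16.4% of all genes were, with a median log2 ratio of 2.94. In ASK1-deficient mice it was 21 of 28, where 12.3% of all genes were, with a median of 2.86. Phkg1, a subunit of phosphorylase kinase, was the 1 gene below 0, at -0.84 in WT and -0.56 in ASK1-deficient mice. Fbxo32, Xirp1 and Myoz3 were also among the 5 lowest of both genotypes, with Unc45b in WT and Synpo2l in ASK1-deficient mice. Among the genes measured in both depots, the highest in WT were Myom2 (8.53), Cox6a2, Trdn, Pgam2 and Txlnb, and in ASK1-deficient mice Cox6a2 (8.09), Pgam2, Txlnb, Mylk2 and Hrc. Genes dim in eWAT have only a bound and are left out of these medians and of this order. Some bounds lie above the highest genes named, such as at least 611-fold for Ckmt2 in WT and at least 414-fold for Myom2 in ASK1-deficient mice.

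Of 12 regulators and other genes of muscle stem cells and forming muscle, 7 were well above background in WT iBAT, 9 in iBAT of ASK1-deficient mice, 6 in WT eWAT and 5 in eWAT of ASK1-deficient mice. Myod1, Myog and Myf5 were not well above background on any of the 4 arrays. Myf6, the factor kept on in mature fibres, gave 123, 143, 9.21 and 4.93, and Pax7, the mark of satellite cells, gave 28.2, 28.8, 12.8 and 15.2, both well above background in iBAT alone. Chrng, the fetal subunit of the acetylcholine receptor, had a log2 ratio of -0.99 in iBAT and -0.06 in eWAT from signals between 24.5 and 48.3. The homeobox factor Six4 was at -0.35 in iBAT and 0.44 in eWAT, and Mef2c at -0.18 and -0.03. Embryonic Myh3 was well above background only in ASK1-deficient iBAT, with 49.1 and 27.2 at its pair of probes. One Pax3 probe, with signals between 19.3 and 30.7, was well above background in ASK1-deficient iBAT and WT eWAT.

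The probes of the neonatal myosin gene Myh8 differed widely in signal. One of its 4 probes gave 126443, 125544, 523 and 233, in the manner of Myh4, while of the other 3, 1 gave 442, 466, 3.99 and 4.26 and the rest were not well above background on any array. Myh1, Myh2, Myh4 and Myh8 are near-identical neighbours on chromosome 11, and whether a probe of one also reads another was not tested. The log2 ratio of Myh8 in eWAT was -1.08. Cardiac actin Actc1, a close relative of Acta1, was at 0.34 in iBAT and -1.97 in eWAT, with signals of 577, 761, 126 and 30.2.

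Some genes of calcium and creatine cycling that brown fat uses itself were read beside their muscle counterparts. Atp2a2, the calcium pump of slow muscle and non-muscle cells, gave 3296, 2884, 1477 and 1502 at its brighter probe, a log2 ratio of iBAT to eWAT of 2.08 in WT, where that of Atp2a1 was 6.77. Brain-type creatine kinase Ckb was at 0.61 in iBAT and -0.17 in eWAT. Mitochondrial Ckmt2 gave 6102, 5008, 12.3 and 5.0, or -0.35 in iBAT. It was at least 611-fold higher in WT iBAT than in WT eWAT, where muscle Ckm was 594-fold higher, and Ryr2 was dim on all 4 arrays.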

How the data were processed

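The authors deposited scanner output for each of the 4 one-colour arrays, made with Feature Extraction 10.7.3.1 per the file headers. The processed signal used here is a linear intensity, corrected for background and not scaled between arrays. The table of the series that the authors deposited holds a signal equal to that intensity divided by 1 constant per array, which brings each column's median to 1. Outlier-marked and control spots were dropped, which removed 9 probes. Spots of a probe were averaged as log2 values, and each array's 75th percentile was subtracted. Genes were valued by the mean of their probes well above background on both arrays, and at least 2-fold counts as apart. Of 34844 gene names, 22147 matched the RefSeq gene table. Each group has 1 array, so no test was run within a tissue. Tissue and genotype were fitted together with limma 3.58.1 in R 4.3.3, with Benjamini-Hochberg adjustment. The log2 ratio between arrays and the limma fits were tested on simulated data with technical spread only. Alternatives were normexp with an offset of 50, quantile, cyclic loess, median and no scaling, a percentile over detected probes, the series table, the brightest probe, other filters on dim probes, a 1.5-fold threshold and fits with 1 factor. The members and lists were chosen with earlier results of these data known. Named were all members, the 5 highest and 5 lowest other muscle genes per comparison, the regulators, genes that check the labels and the 2 brightest genes of a list that differed 2-fold in summed signal in eWAT. Myh8, Actc1, Atp2a2, Ckb, Ckmt2 and Ryr2 were discussed after their values were seen. Epididymis, endothelial, erythrocyte, and nerve lists were also read. One regulator is not reported here. Python 3.11.15, numpy 2.4.6, pandas 2.3.3 and matplotlib 3.10.9 were used.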

Additional observations from a re-analysis of the deposited data

How the results depend on the processing

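Every member measured stayed at least 2-fold higher in iBAT than in eWAT under each alternative run. The iBAT median of the members, 0.0057, turned to -0.08 with the series table and to -0.07 when arrays were centred on their medians, and was 0.12 after quantile normalization, 0.13 after cyclic loess and 0.11 when the percentile was taken over detected probes, and 1 member was past the threshold with no filter on dim probes, Smpx, and another 1 at 1.5-fold, Sln. The eWAT median, -0.29, was -0.17 with normexp, -0.38 without scaling and -0.17 over probes with a mean signal of at least 100, a setting chosen after seeing the data. The 3 members at least 2-fold lower in eWAT became 0 with normexp, 5 with no filter and 6 at 1.5-fold. Between the depots in WT, the median of 6.84 was 5.98 with normexp, 6.66 after quantile normalization, 6.72 after cyclic loess, 5.92 without scaling, 6.92 with no filter and 6.70 when the percentile was taken over detected probes. Signs of single genes turned too, as the log2 ratio ran from -0.48 to 0.22 for Pvalb and from -0.09 to 0.96 for Mybpc1 in eWAT, and from -0.32 to 1.29 for Smpx in iBAT. In ASK1-deficient mice the median between the depots of 7.24 was 6.10 with normexp, 6.47 without scaling, 7.16 with median centring and 7.17 with the series table. The shifts without scaling, with median centring, with the detected percentile and with the series table are 1 constant for all genes. For the other shifts the cause was not tested. The genotype fit called 0 members with the main setting but 1, Ttn, with the series table, where it called 128 of all 14057 genes, or with median centring, where it called 138. In both the variance was pooled fully over genes, and Ttn was at 0.15 in iBAT and -1.84 in eWAT. Each group is 1 pool on 1 array, so differences between mice are unknown, and eWAT values near the lowest signal above background, 18.9 in WT and 20.7 in ASK1-deficient eWAT, carry the least weight. No paired analysis was possible because each group has 1 array, so that replicate numbers pair no arrays, and for the same reason no array was left out in turn. In the genotype fit the tissue stood as a block, and with it left out 0 members were called.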

Other observations

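Lists of other muscle and stromal types were read beside the skeletal muscle genes. Of the heart genes, Myh6 gave 39.8, 34.8, 21.5 and 22.5, in the order WT iBAT, ASK1-deficient iBAT, WT eWAT and ASK1-deficient eWAT, at 1 probe and was dim at the other, and Myl7 and Mybphl were dim on all 4 arrays. Nppa and Nppb were well above background on all 4 arrays, with log2 ratios of WT iBAT to WT eWAT of 0.81 and 0.44. Tnnt2 was well above background only in ASK1-deficient iBAT. Tnni3 and Mybpc3 were well above background in eWAT only, with 67.9 and 65.8 in WT and 52.9 and 52.0 in ASK1-deficient mice. Myl4, the atrial light chain, gave 1502, 1086, 2703 and 3066. Smooth muscle genes were brighter in WT eWAT than in WT iBAT in 8 of 8 measured, with a median log2 ratio, iBAT minus eWAT, of -0.76. In ASK1-deficient mice it was 6 of 10, with a median of -0.11. In eWAT of ASK1-deficient against WT mice their median was -0.09, but Actg2 and Cnn1 were at -1.06 and -1.03. Macrophage genes were lower in iBAT than in eWAT in 8 of 8 measured in WT, with a median of -2.98. Between the genotypes in eWAT, the endothelial list was at -0.08, the nerve and Schwann cell list at -0.03 and the erythrocyte list at -0.20. In iBAT they were at 0.12, 0.15 and -0.26. Of the epididymis list, Spink8 was the 1 gene measured in eWAT, at -0.88, and 0 were measured in iBAT.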
